A study of Mus musculus with 24 samples.

Results

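The genes examined here mark lymphocytes: Cd3e, Cd3d and Cd3g, which encode chains of the CD3 complex of the T cell receptor, Cd4 and Cd8a, the co-receptors of helper and cytotoxic T cells, Nkg7, a granule protein of natural killer (NK) cells and cytotoxic T cells, Ms4a1 (CD20) and Cd79a, surface proteins of B cells, and Jchain, the joining chain of secreted antibody. They were listed by name and matched to Ensembl identifiers, and all 9 were found among the 56065 genes of the table. Choroidal RNA of mice was measured in 24 libraries, 4 from wild type (WT) and 4 from Ceacam1-/- (KO) mice without laser, and 9 from WT and 7 from KO mice labelled as laser treated. The KO mice lack the first and second exons of Ceacam1 in every cell, and WT littermates of the same crosses served as controls. Laser treatment followed the labels' protocol for inducing choroidal neovascularization (CNV), with 6 spots of 150 mW, 200 µm and 100 ms in each eye. The time between laser and dissection, the age and the sex of single mice are not given in the labels. For choroid without laser the authors give 4 WT and 4 KO mice. For the laser libraries it is not stated that each came from a separate animal, so p-values measure the spread between libraries.

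Lymphocytes patrol the body through blood and lymph and are scarce in the healthy eye, where resident immune cells are mostly macrophages, microglia and mast cells. Most T cells recognise antigen through a receptor whose alpha and beta chains signal only together with CD3 and zeta chains. B cells signal through surface immunoglobulin with CD79a and CD79b, and plasma cells secrete antibody. Macrophages are the leukocytes best known to enter a laser lesion.

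Values are normalized counts, that is, reads of a gene estimated by the authors and divided by factors for library size and transcript length. They summed to between 23704346 and 35094410 per library. The 9 genes were of low abundance. Their mean over the 24 libraries was between 7.71 for Cd8a and 92.9 for Jchain, and between 48.5% and 64.9% of all genes above 0 in any library had lower means. Cd3g was listed at 0 in 1 library, Ms4a1 in 1 and Cd8a in 3, while the other members were above 0 in all 24. Per kilobase of the canonical transcript, the median level over libraries was highest for Jchain at 44.7 normalized counts per kilobase, followed by Nkg7 at 42.6 and Cd4 at 22.3. Cd79a had a median of 14.9 per kilobase, Cd3e 11.6 and Cd3g 11.4, and below them came Cd3d at 3.70, Ms4a1 at 3.35 and Cd8a at 1.68. The ranges over libraries of neighbours in this order overlapped. Low values carry large counting error, and reads cannot be recovered from these values, so no counting interval is given.

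The labels were checked against Ceacam1 and against tissue markers. Ceacam1 had 958, 5027, 1242 and 4596 normalized counts in the 4 WT libraries without laser, and 405, 505, 508 and 1171 in the 4 KO libraries without laser. With laser it ranged from 774 to 8367 in WT (median 996) and from 67.8 to 905 in KO (median 335). Its level was lower in KO by 2.17 ± 0.52 on the log2 scale with laser (SE, limma adjusted p = 0.104) and by 1.95 ± 0.60 without (adjusted p = 0.999), and single KO libraries reached into the WT range. Reads outside the deleted exons count toward this total. Ceacam1 was highest in each group where surface epithelium markers were highest. Their sum was 291714 and 69052 in libraries 22 and 27 (WT without laser) and 102179 in library 19 (WT with laser). It was 391658 in library 28 (KO without laser) and 393501 in library 15 (KO with laser), and its part in Ceacam1 was not tested. The choroidal markers were present in all groups: Plvap of fenestrated endothelium had at least 1051 normalized counts in every library, Dct of melanocytes at least 5437 and Rpe65 of the retinal pigment epithelium at least 2045.

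Photoreceptor RNA varied widely between libraries. The sum of 6 photoreceptor markers, all above 0 and led by Gnat1 (rod transducin), was 283085, 48839, 5956 and 136614 normalized counts in the WT libraries without laser and 304786, 14081, 2082 and 10839 in the KO libraries without laser. It ranged from 3970 to 104484 in WT with laser (median 26343) and from 4411 to 521027 in KO with laser (median 75446). A sum above 250000 was found in 5 libraries, namely library 21 of WT without laser, library 23 of KO without laser, and libraries 14, 15 and 18 of KO with laser, the numbers being those of the labels. The same 3 KO laser libraries had the 3 lowest Dct values (6220, 13736 and 5437) and the lowest Rpe65 values of the series. The main results are given again without these 5 libraries, a set chosen after the data were seen, and the part of retinal RNA in the results was not tested further.

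The genes encoding the CD3 chains lie together on chromosome 9 (GRCm39), within 40.1 kb. Cd3g spans chr9:44880870-44891735 on the minus strand, Cd3d chr9:44893083-44899173 on the plus strand and Cd3e chr9:44910037-44920925 on the minus strand. Cd3d and Cd3g start 1348 bases apart and run away from each other, so their upstream sequences share one interval. The 250 bases before each start are shown because the CD3 chains moved together across libraries (described further on). Genes of other cell types moved with them as well, so this movement was not particular to the CD3 chains. Capitals mark matches to CANNTG, the E-box bound by E proteins of lymphocyte development, which reads the same on both strands.
Cd3e, chr9:44920912-44921161, minus strand: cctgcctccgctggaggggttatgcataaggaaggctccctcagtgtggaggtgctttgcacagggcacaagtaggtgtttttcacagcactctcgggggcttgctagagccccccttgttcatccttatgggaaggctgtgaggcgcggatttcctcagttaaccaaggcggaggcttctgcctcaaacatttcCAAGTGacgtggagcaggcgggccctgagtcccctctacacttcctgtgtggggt
Cd3d, chr9:44892833-44893082, plus strand: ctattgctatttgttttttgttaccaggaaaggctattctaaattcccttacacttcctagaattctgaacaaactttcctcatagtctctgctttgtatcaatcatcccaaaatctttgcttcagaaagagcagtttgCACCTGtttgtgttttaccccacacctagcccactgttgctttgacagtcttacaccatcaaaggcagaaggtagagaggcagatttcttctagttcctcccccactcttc
Cd3g, chr9:44891736-44891985, minus strand: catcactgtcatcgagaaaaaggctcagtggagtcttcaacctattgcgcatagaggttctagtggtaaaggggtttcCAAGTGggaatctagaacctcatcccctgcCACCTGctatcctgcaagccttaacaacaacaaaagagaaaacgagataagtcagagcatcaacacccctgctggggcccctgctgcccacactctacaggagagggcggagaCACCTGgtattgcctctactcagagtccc
Cd3e and Cd3d each held 1 E-box in this window and Cd3g held 3. Among the 9 genes, 8 held at least 1, all but Cd79a, beside 64.7% of 21599 protein-coding genes. TGTGGT, a RUNX motif, or its reverse complement was in the windows of Nkg7 alone (2818 of the 21599), and CCGGAA, an ETS motif, on either strand was in none of the 9 (2687 of the 21599). These matches describe the letters of the sequence only.

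The other members lie elsewhere. Cd8a is at chr6:71350411-71356157 (plus) and Cd4 at chr6:124841655-124874758 (minus), Jchain at chr5:88667668-88675750 (minus), Ms4a1 at chr19:11227039-11243605 (minus), Nkg7 at chr7:43086497-43087678 (plus) and Cd79a at chr7:24596740-24601622 (plus). Cd79a is 0.56 Mb from Ceacam1, which is at chr7:25161128-25177257, so it can carry alleles linked to the deletion. Nkg7 is 17.9 Mb from Ceacam1.

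None of the 9 lymphocyte genes rose or fell past the threshold after laser, in either genotype. In WT mice 0 of the 8 members tested were called, where limma called 1053 of 19950 genes (5.28%; higher 4.23%, lower 1.05%). In KO mice 0 of 8 were called, beside 742 of 19950 genes (3.72%; higher 2.07%, lower 1.65%). No member had an unadjusted p under 0.05 in either comparison. The median log2 difference of the 9 was -0.13 in WT and 0.54 in KO, beside -0.10 and 0.02 over all genes tested. Cd8a, with a mean under 10, was not tested across genes. The threshold was a Benjamini-Hochberg adjusted p of 0.05, and differences are on the scale of log2(value + 1), which understates changes of genes as low as these.

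Cd3e, whose epsilon chain is shared by the signalling dimers of the T cell receptor complex, had 8.49, 10.1, 19.9 and 33.5 normalized counts in WT mice without laser and from 10.2 to 36.6 with laser (median 17.01). In KO mice it had 10.5, 5.65, 2.92 and 40.2 without laser and from 3.66 to 59.3 with laser (median 20.3). The WT groups overlapped almost fully, and in KO mice the spread within each group was wider than the gap between the groups, with library 28 far above the other KO libraries without laser. The laser difference was 0.17 ± 0.64 in WT (log2, SE, limma adjusted p = 0.900; two-sided exact permutation p = 0.671 over 715 splits) and 0.94 ± 0.67 in KO (adjusted p = 0.444; exact permutation p = 0.306 over 330 splits). With 95% confidence, the change in WT lay between -1.15 and 1.48 and in KO between -0.43 and 2.32.

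Cd3d, the delta chain, had 4.47, 6.93, 9.63 and 8.78 normalized counts in WT without laser and from 4.55 to 18.1 with laser (median 7.90). The KO libraries had 0.858, 6.89, 5.27 and 31.2 without laser and from 4.63 to 36.3 with laser (median 14.4). In WT 4 of 9 laser libraries were above every library without laser, and in KO 2 of 7. The log2 difference was 0.33 ± 0.63 in WT (adjusted p = 0.785) and 1.05 ± 0.65 in KO (adjusted p = 0.384).

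Cd3g, the gamma chain, had 2.49, 12.4, 33.6 and 16.1 normalized counts in WT without laser and from 3.74 to 41.6 with laser (median 10.7). Without laser the KO libraries had 8.62, 10.7, 8.48 and 28.5, and with laser from 0 to 62.9 (median 17.2). Library 18, among the photoreceptor-rich ones, was listed at 0, and 3 of 7 KO laser libraries exceeded all KO libraries without laser. The log2 difference was -0.13 ± 0.88 in WT (adjusted p = 0.945) and 0.20 ± 0.92 in KO (adjusted p = 0.920).

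Cd4 had the smallest standard errors of the 9. It had 46.2, 41.8, 126 and 53.3 normalized counts in WT without laser and from 44.0 to 134 with laser (median 76.7), and in KO 34.1, 75.7, 46.6 and 79.9 without laser and from 33.5 to 146 with laser (median 80.0). The groups overlapped in both genotypes. Its log2 difference was 0.27 ± 0.38 in WT (95% confidence interval -0.53 to 1.06, adjusted p = 0.714) and 0.28 ± 0.40 in KO (-0.55 to 1.11, adjusted p = 0.726). In mice some dendritic cells and macrophages also carry CD4.

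Cd8a was the lowest member, with 0, 6.94, 25.6 and 26.4 normalized counts in WT without laser and from 1.82 to 11.015 with laser (median 5.07). In KO it was listed at 0 in 2 of 4 libraries without laser, the others having 2.97 and 6.44, and ranged from 2.29 to 22.5 with laser (median 5.45). All KO laser libraries were above 0, and 3 of 7 exceeded every KO library without laser. The groups with and without laser differed by -0.41 on the log2 scale in WT (exact permutation p = 0.622) and 1.69 in KO (exact permutation p = 0.0545). The WT value depended on library 21, the one listed at 0 and one of the photoreceptor-rich libraries. Without library 21 it was -1.45 (exact permutation p = 0.0364 over 220 splits). A wider fall follows from leaving out the lowest value without laser, a choice made after the data were seen. With all libraries, 0 of 36 exact permutation tests of members had p under 0.05.

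Nkg7 had 6.75, 60.8, 54.3 and 41.1 normalized counts in WT without laser and from 10.8 to 60.0 with laser (median 27.4), so that no laser library exceeded the highest one without. Values in KO were 16.6, 24.4, 45.6 and 61.1 without laser and from 16.5 to 99.6 with laser (median 42.2). Libraries 5 and 7, with 96.6 and 99.6, were the highest of the series. The log2 difference was -0.21 ± 0.56 in WT (adjusted p = 0.853) and 0.47 ± 0.58 in KO (adjusted p = 0.680).

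Of the B cell genes, Ms4a1 had 16.1, 14.5, 25.3 and 1.14 normalized counts in WT without laser and from 2.97 to 16.7 with laser (median 9.28). In KO it had 10.2, 8.36, 8.70 and 8.12 without laser, the narrowest group of any member, and from 0 to 27.5 with laser (median 14.6). The WT laser values lay within the range of those without laser, while in KO they fell on both sides of it. The log2 difference was -0.19 ± 0.71 in WT (adjusted p = 0.896) and 0.16 ± 0.74 in KO (adjusted p = 0.923).

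Cd79a had 9.21, 9.85, 35.0 and 4.97 normalized counts in WT without laser and from 2.31 to 37.2 with laser (median 29.2). Of the 9 WT laser libraries 8 had at least 17.9, above 3 of the 4 without laser, while library 19 had the lowest value of the series. In KO it had 14.6, 27.05, 21.9 and 7.84 without laser and from 9.42 to 69.1 with laser (median 26.8). The log2 difference was 0.86 ± 0.62 in WT (95% confidence interval -0.42 to 2.14, adjusted p = 0.445) and 0.54 ± 0.64 in KO (adjusted p = 0.666).

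Jchain, which joins the units of secreted IgM and IgA, had 111, 86.7, 90.0 and 42.5 normalized counts in WT without laser and from 22.5 to 123 with laser (median 38.6). KO libraries had 144, 52.8, 72.2 and 8.42 without laser and from 27.6 to 499 with laser (median 126). In WT 5 of 9 laser libraries were below every library without laser, and in KO the 3 highest values (499, 185 and 200) were those of libraries 14, 15 and 18. Antibody genes were mixed there. Ighg2c (an IgG heavy chain) had 9.78, 3.20 and 43.4 in libraries 14, 15 and 18, beside 2.01 to 4.03 in the other KO laser libraries. Ighg1 had 0, 3.15 and 19.7, beside 0 in the others. Igkc and Igha were not high. Igkc (kappa light chain) had 26.1, 42.0 and 22.9, beside 42.6 to 261 in the other KO laser libraries. Igha (IgA heavy chain) had 0, 25.3 and 12.4, beside 0.715 to 129. The log2 difference was -0.79 ± 0.69 in WT (adjusted p = 0.533) and 1.15 ± 0.72 in KO (adjusted p = 0.383).

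**Figure D1:**
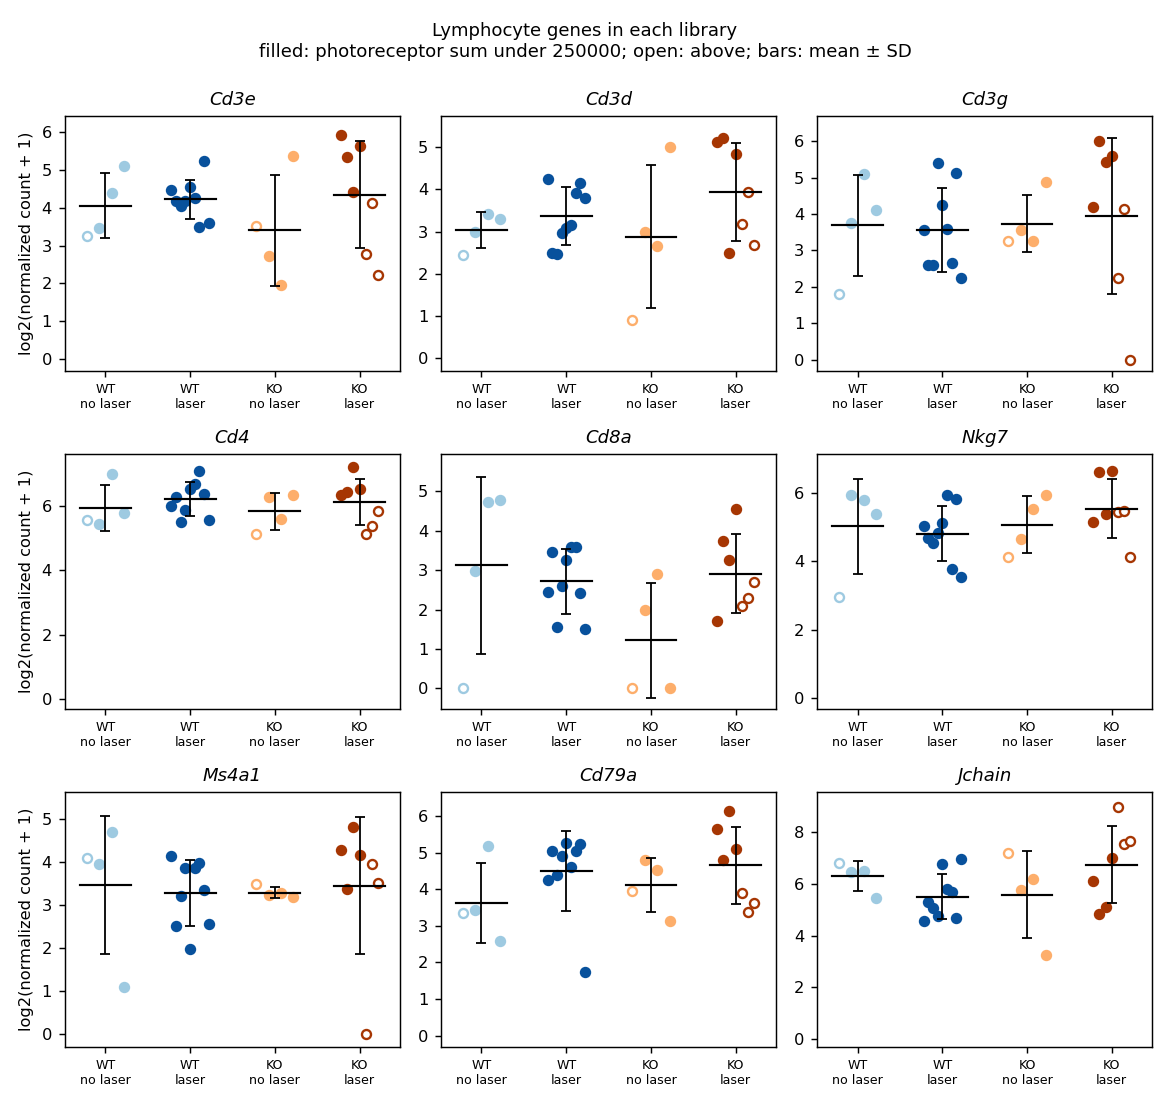
Values of the 9 lymphocyte genes in each of the 24 libraries, as log2(normalized count + 1) on the vertical axis, by group, with the mean ± SD (black). The groups overlap for every gene, and libraries with a photoreceptor sum above 250000 (open circles) hold the 3 highest Jchain values and, among KO laser libraries, the 3 lowest Cd3e values.

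Genes that all leukocytes share rose after laser, 1 of 8 in KO excepted. Ptprc, which encodes CD45, had 152, 198, 302 and 271 normalized counts in WT without laser and from 814 to 1406 with laser, so the groups did not overlap, as was the case for 4.5% of all genes tested in this direction. All 8 pan-leukocyte genes rose in WT (median log2 difference 2.25) and 7 of 8 rose in KO (median 1.68), Cd37 at 0.87 missing the threshold (adjusted p = 0.0955). Macrophage and monocyte genes rose in WT for 11 of 12 (median 2.30) and in KO for 7 of 12 (median 1.59), led in abundance by Lyz2 (lysozyme) at 2.74 ± 0.40 and 2.44 ± 0.41. Cd53, a tetraspanin of leukocytes, rose most among the pan-leukocyte genes, by 3.34 ± 0.36 in WT and 2.87 ± 0.38 in KO. Of 6 dendritic cell genes 3 rose in WT and 1 in KO, Ccr7 by 3.21 ± 0.57 and 2.19 ± 0.59, and of 4 neutrophil genes tested 2 and 1, S100a8 by 2.37 ± 0.56 and 3.25 ± 0.59. Among 5 fibroblast genes Lum alone rose, in both genotypes, and no gene of the mast cell, erythroid, endothelial, retinal pigment epithelium, melanocyte, photoreceptor, skeletal muscle, lens and surface epithelium lists was called. Without the 5 photoreceptor-rich libraries all 8 pan-leukocyte genes rose in both genotypes, as did 11 of 12 macrophage and monocyte genes. Fibroblast genes then rose for 3 of 5 in WT and 5 of 5 in KO, and in KO all 5 skeletal muscle genes and 1 surface epithelium gene fell. With all libraries the photoreceptor list had medians of -1.48 in WT and 2.23 in KO. The 95% intervals of the pan-leukocyte genes began at 1.03 or higher in WT. Among the 8 members tested, the upper bounds of Nkg7 (0.94) and Jchain (0.63) lay below that. Those of the other 6, from 1.06 for Cd4 to 2.14 for Cd79a, lay above 1.03, so a rise of 1.03 was not excluded for them. All 6 lay below the pan-leukocyte median of 2.25. The difference between the gene groups was itself not tested.

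**Figure D2:**
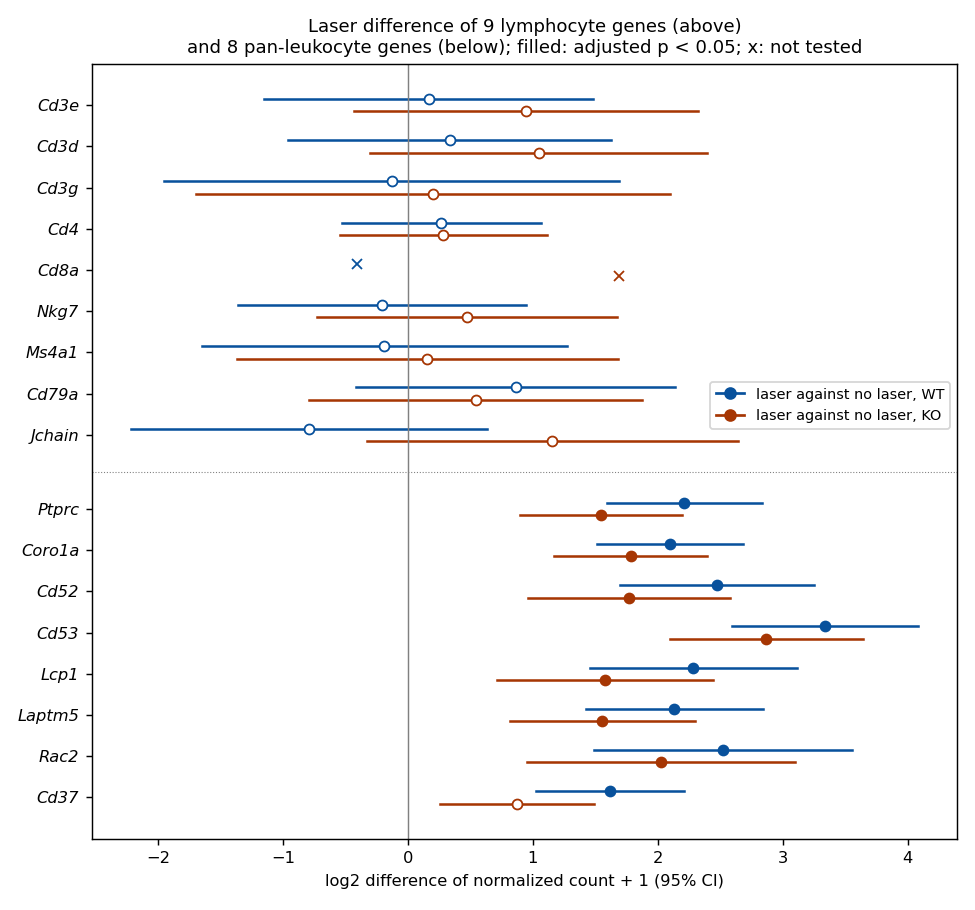
Log2 difference with its 95% confidence interval (horizontal axis) between libraries with and without laser, for the 9 lymphocyte genes (upper rows) and 8 pan-leukocyte genes (lower rows), in WT (blue) and KO (brown). Filled circles passed an adjusted p of 0.05, which no lymphocyte gene and all pan-leukocyte genes but Cd37 in KO did, and Cd8a, shown by crosses, was not tested.

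The summed pan-leukocyte genes went from a median of 2921 to 14585 normalized counts with laser in WT, while the summed CD3 chains had medians of 43.9 and 37.1. In KO the pan-leukocyte medians were 3054.5 and 14998 and those of the CD3 sum 21.6 and 66.7. The summed Cd3e, Cd3d and Cd3g came to between 8.42 and 20.5 per 1000 pan-leukocyte normalized counts in WT without laser (median 11.9) and to between 1.50 and 7.55 with laser (median 2.35). The 2 WT groups did not overlap in this ratio. The pan-leukocyte sums alone did not overlap in WT either (1834 to 4491 without laser and 11552 to 20508 with laser). A gene with unchanged counts would thus tend to separate too, and the share of all genes that do was not computed. In KO the ratio was between 6.27 and 28.5 without laser (median 7.07) and between 2.00 and 8.49 with laser (median 7.35), and these groups overlapped. Ms4a1 and Cd79a together gave medians of 10.8 and 2.17 per 1000 in WT without and with laser, and of 9.82 and 4.32 in KO, with groups that overlapped in both genotypes. Without the photoreceptor-rich libraries the CD3 medians were 14.1 and 2.35 in WT, still with no overlap, and 7.46 and 7.66 in KO. The ratio is a description with no test, since it is a score over members, and its size follows the denominator. Trbc2 of the T cell receptor, described further on, rose by 2.27 in WT and 2.08 in KO, beside pan-leukocyte medians of 2.25 and 1.68. Fewer lymphocytes among the leukocytes, less RNA of these genes per lymphocyte and more pan-leukocyte RNA per leukocyte cannot be told apart in bulk tissue.

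**Figure D3:**
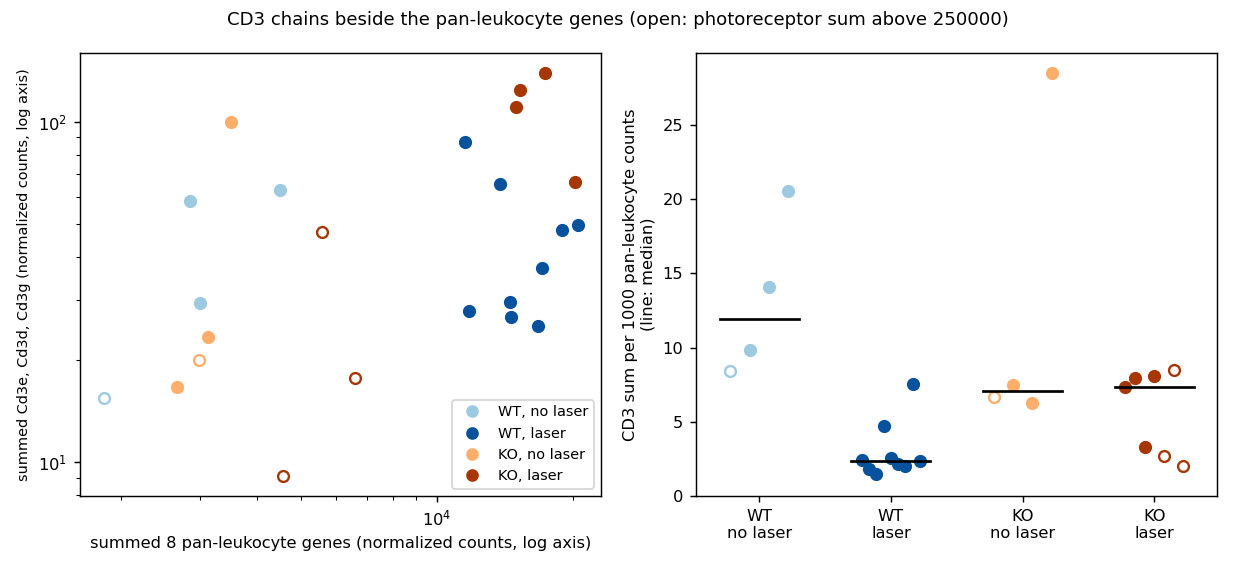
Left, the summed CD3 chains against the summed 8 pan-leukocyte genes in each library (both in normalized counts, log axes). Right, the CD3 sum per 1000 pan-leukocyte counts by group with the median as a line, which was 11.9 in WT without laser and 2.35 in WT with laser, and 7.07 and 7.35 in KO.

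Wider lists of lymphocyte genes, which leave out the 9 members, held some that rose. Of 25 T cell receptor and signalling genes, 19 were tested and 2 rose in each genotype, none falling (median log2 difference of the list 0.42 in WT and 0.72 in KO). Of 16 NK and cytotoxic genes, 9 were tested, of which 2 rose in WT and 1 in KO (medians 0.62 and 1.04). Of 15 B cell genes, 8 were tested, and 2 rose in WT and 0 in KO (medians 1.15 and 0.50). Of 11 plasma cell genes 3 were tested and 0 changed (medians 0.14 and 0.41). These counts stand beside 4.23% and 2.07% of all genes called higher in WT and KO.

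Il7r, the interleukin 7 receptor of T cells and innate lymphoid cells, changed most. It had 7.24, 10.998, 12.6 and 14.3 normalized counts in WT without laser and from 122 to 414 with laser (median 262). The values in KO were 9.52, 15.95, 5.75 and 50.1 without laser and from 44.2 to 360 with laser (median 274). The WT groups were far apart, and in KO 2 laser libraries, 15 and 18, did not exceed library 28. The rise was 4.28 ± 0.56 in WT (adjusted p = 4.47e-05) and 3.28 ± 0.58 in KO (adjusted p = 0.00273).

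Trbc2, a constant region of the T cell receptor beta chain, had 2.52, 18.95, 19.3 and 17.3 normalized counts in WT without laser and from 32.2 to 97.8 with laser, and rose by 2.27 ± 0.56 (adjusted p = 0.0170). In KO it had 8.89, 14.6, 7.91 and 16.7 without laser and from 9.49 to 142 with laser, a rise of 2.08 ± 0.58 (adjusted p = 0.0461). The groups did not overlap in WT, and in KO library 18 fell among the libraries without laser. The WT call was lost without library 21 (1.66, adjusted p = 0.131) but held without all 5 photoreceptor-rich libraries (adjusted p = 0.00854), and the KO call was lost in 12 of 19 alternatives, where the difference was between 1.85 and 2.25 (adjusted p from 0.0517 to 0.235). Trac, the alpha constant region, had differences of 1.31 ± 0.53 and 1.34 ± 0.55 in WT and KO with adjusted p of 0.157 and 0.167.

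Among NK and cytotoxic genes, Ctsw (cathepsin W) had 20.4, 23.3, 27.2 and 45.7 normalized counts in WT without laser and from 93.9 to 331 with laser. It rose by 2.57 ± 0.47 in WT (adjusted p = 0.00161), and in KO its difference was 1.15 with adjusted p = 0.188. Klrd1 (CD94), with 22.8, 13.2, 22.5 and 14.6 in WT without laser and from 25.3 to 119 with laser, rose by 1.98 ± 0.42 in WT (adjusted p = 0.00590) and had a difference of 1.17 in KO (adjusted p = 0.132). Klrk1 (NKG2D) had 3.50, 31.3, 16.7 and 11.5 in KO without laser and from 34.8 to 132 with laser, and rose by 2.46 ± 0.51 (adjusted p = 0.00976), beside 1.50 in WT (adjusted p = 0.0764). The WT groups of Ctsw and Klrd1 and the KO groups of Klrk1 did not overlap, beside 4.5% of all genes tested in WT and 1.17% in KO in that direction. The interaction of laser and genotype called none of the genes on these lists.

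Among B cell genes, Ighm, the heavy chain of IgM, had 55.5, 208, 344 and 316 normalized counts in WT without laser and from 437 to 796 with laser, a rise of 1.63 ± 0.42 (adjusted p = 0.0237). The WT groups did not overlap, yet the call was lost without library 21 (1.04, adjusted p = 0.172) or library 22 (adjusted p = 0.0518). It held without all 5 photoreceptor-rich libraries, 21 among them (adjusted p = 0.00255). In KO its difference was 0.90 (adjusted p = 0.254), and 1.51 without those 5 libraries (adjusted p = 0.00024). Cd22, a B cell lectin, rose by 1.81 ± 0.50 in WT (adjusted p = 0.0339), and this call was lost in 9 of 22 alternatives, 7 of them leaving out 1 library (11, 12, 13, 16, 21, 22 or 27), where the difference was between 1.67 and 1.84 (adjusted p from 0.0516 to 0.130). It held without the 5 photoreceptor-rich ones (adjusted p = 0.00603). Its difference in KO was -0.07 (adjusted p = 0.952), and 1.12 without those 5 libraries (adjusted p = 0.105). Cd79b, the partner of Cd79a, had differences of 1.34 in WT (adjusted p = 0.0901) and 0.61 in KO (adjusted p = 0.494), and Igkc, the kappa light chain and the most abundant plasma cell gene, of 0.38 and -0.62 (adjusted p = 0.782 and 0.661).

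**Figure D4:**
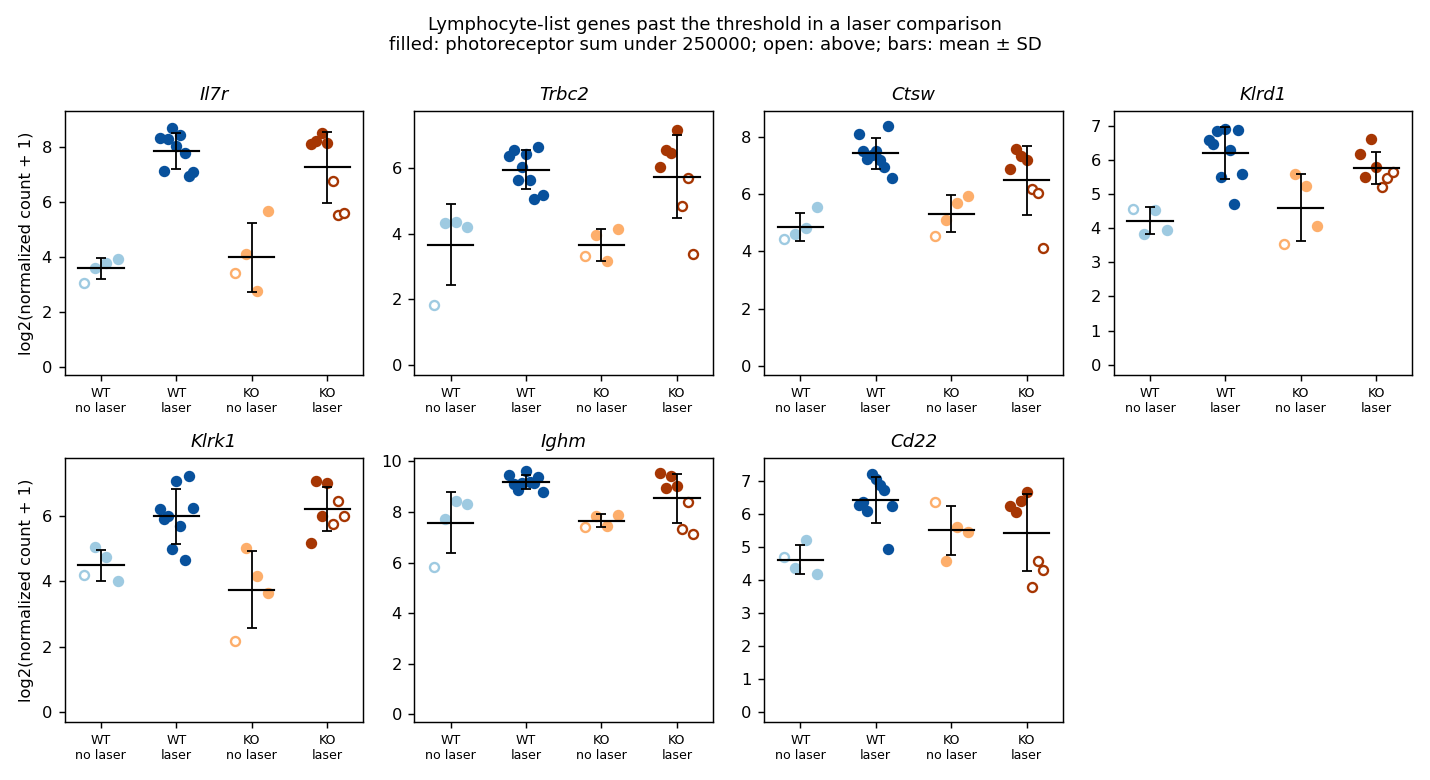
The 7 genes of the wider lymphocyte lists that passed the threshold in WT or KO after laser, as log2(normalized count + 1) in each library (vertical axis) with the mean ± SD, by group. Il7r, Trbc2, Ctsw, Klrd1 and Ighm have WT groups that do not overlap, and open circles are libraries with a photoreceptor sum above 250000.

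Without the 5 photoreceptor-rich libraries, 0 of 8 members tested were called in either genotype, beside 5.76% of 19596 genes called higher in WT and 8.66% in KO. Cd3e came nearest in KO, with a log2 difference of 1.97 ± 0.66 (adjusted p = 0.0520), and Cd3g was at 1.41 ± 0.76 (adjusted p = 0.232). In WT, Cd3e was at -0.10 and Cd3g at -0.76 (adjusted p = 0.942 and 0.534). Nkg7 was at -0.90 ± 0.49 in WT (adjusted p = 0.290), and the other members tested lay between -0.62 for Jchain and 0.77 for Cd79a there. In KO Jchain was at 0.70 and Cd79a at 1.26 (adjusted p = 0.552 and 0.287). Ms4a1 was at 0.94 and Cd3d at 0.87 in KO (adjusted p = 0.426 and 0.443), and Cd4 and Nkg7 were both at 0.56 (adjusted p = 0.399 and 0.543). The wider lists gave 6 genes called in WT, namely Trbc2, Il7r, Ctsw, Klrd1, Cd22 and Ighm. In KO they gave 9, which were Trac, Trbc2, Lat, Il7r and Skap1 of T cells, Ctsw, Ccl5 and Klrk1 of cytotoxic cells, and Ighm. Trac rose there by 1.51 ± 0.44 and Skap1, an adaptor of T cell receptor signalling, by 3.08 ± 0.79. Cd4 and Ms4a1 had KO groups that did not overlap (4 laser libraries against 3, two-sided exact permutation p = 0.0571 for each; the smallest p this design allows is 0.0286), and 14.3% of all genes tested were higher without overlap there. When limma weighted libraries by their quality, Cd79a was called in WT (1.49 ± 0.47, adjusted p = 0.0187) and Cd3e in KO (2.04 ± 0.56, adjusted p = 0.0121), beside 16.2% and 9.5% of all genes called higher. When only the KO libraries entered the fit, 38 of 20299 genes were called and none of the lymphocyte lists.

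Between genotypes without laser, 0 of the 7 members tested were called, and neither was any other of 20057 genes (0%). Of all genes tested, 307 had an unadjusted p under 0.05. Ceacam1, the deleted gene, was itself not called. The paper, with DESeq2 and sex as a covariate, reported a small set of differing genes between these genotypes. The labels do not give sex and the values are not whole reads, so that fit was not repeated. The log2 differences of KO from WT lay between -0.71 ± 0.79 for Jchain and 0.47 ± 0.70 for Cd79a among the members tested, each with an adjusted p of 0.999. The direction for Jchain depended on library 28, without which it was 0.0709. Cd3d and Cd8a, with means under 10 in these 8 libraries, were compared by exact permutation alone (log2 differences -0.15 and -1.90, p = 0.83 and 0.229, the smallest possible with 4 against 4 being 0.0286). Without libraries 21 and 23 the Cd8a difference was -2.54, and its 3 KO values lay below the 3 WT values (exact permutation p = 0.1, the smallest this design allows), as did those of 5.15% of genes with a mean of at least 10. The 95% intervals were wide, from -2.53 to 1.22 for Cd3e and from -1.20 to 0.98 for Cd4, and cannot show that the genotypes were alike.

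Between genotypes with laser, 0 of 8 members were called, beside 4 of 19757 genes (0.0202%). Jchain had the largest difference, 1.23 ± 0.55 higher in KO (unadjusted p = 0.0399, a level under 0.05 that 4479 genes reached, adjusted p = 0.205; two-sided exact permutation p = 0.0556 over 11440 splits). Of the 7 KO libraries, 4 exceeded all 9 WT libraries, and 3 of these 4 were the photoreceptor-rich ones. Without them the difference was 0.25 ± 0.51 (adjusted p = 0.951). Nkg7 was at 0.73 ± 0.42 (adjusted p = 0.291).

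For the CD3 chains, leaving out those 3 libraries widened the difference between genotypes. Those 3 held the 3 lowest Cd3e and the 3 lowest Cd3g values of KO with laser, and no WT library with laser was left out. For Cd3e and Cd3g a wider difference thus follows from the choice of libraries. With all libraries Cd3e differed by 0.13 ± 0.50 and Cd3g by 0.38 ± 0.79 (adjusted p = 0.897 and 0.786). Among the other 4 KO libraries Cd3e had a mean of 41.8 normalized counts, beside 18.8 in the 9 WT libraries, a difference of 1.104 ± 0.38 (unadjusted p = 0.0112, adjusted p = 0.409; exact permutation p = 0.00699 over 715 splits). Cd3g had means of 42.3 and 14.9 (1.74 ± 0.62, adjusted p = 0.419; exact permutation p = 0.0238), Cd3d of 25.6 and 10.4 (exact permutation p = 0.0727) and Nkg7 of 67.8 and 31.1 (exact permutation p = 0.0378). The WT and KO values still overlapped for each of these genes. The exact p-values are for single genes and come from a choice of libraries made after the data were seen, and none held over all genes, of which 1623 of 19316 had an unadjusted p under 0.05 there. The exact permutation p of the other members was 0.0615 for Ms4a1, 0.147 for Cd79a, 0.182 for Cd4, 0.283 for Cd8a and 0.646 for Jchain. Haemoglobin and other erythroid RNA, a sign of blood in the tissue, was also uneven, its summed 5 genes reaching 19296, 10184, 29466 and 4501 in these 4 KO libraries and from 1499 to 13094 in WT with laser, and its part in the difference was not tested.

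The interaction of laser and genotype called 0 of 8 members and 0 of 19950 genes (0%; 1241 at an unadjusted p under 0.05). It was largest for Jchain among the members tested, at 1.95 ± 1.00 (unadjusted p = 0.0628, adjusted p = 0.640), falling to 1.33 ± 0.95 without the 5 photoreceptor-rich libraries. Over those 19 libraries it was 2.07 ± 0.88 for Cd3e and 2.17 ± 1.01 for Cd3g (adjusted p = 0.866 for both).

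Within groups, the CD3 chains varied together from library to library. Each value was taken as its deviation from its group mean on the log2 scale, over all 24 libraries, and 9 relations were computed, with p from 100000 permutations within groups and Benjamini-Hochberg adjustment over the 9. Cd3e and Cd3g had Pearson's r = 0.75 (adjusted permutation p = 0.0009) and Spearman's rho = 0.77 (adjusted permutation p = 0.00045). Cd3e and Cd3d had r = 0.62 (adjusted permutation p = 0.0349) and rho = 0.56 (0.0298), and Cd3d and Cd3g r = 0.47 (0.0445) and rho = 0.47 (0.0474). Without the 2 libraries farthest from the median on the x axis, r was 0.68, 0.46 and 0.48 for these pairs, and without the 5 photoreceptor-rich libraries 0.60, 0.61 and 0.28.

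With the mean of the CD3 chains, a score over members and so described with no p, Nkg7 had r = 0.69 and rho = 0.66 over the 24 libraries. Jchain went the other way (r = -0.67, rho = -0.67), and r was at -0.62 without the 2 farthest libraries and -0.58 without the photoreceptor-rich ones. For Cd4 r was 0.49 and rho 0.56. Cd8a, Ms4a1 and Cd79a had r of 0.26, 0.23 and 0.29 with the CD3 mean, and of -0.06, 0.11 and 0.09 without the photoreceptor-rich libraries.

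**Figure D5:**
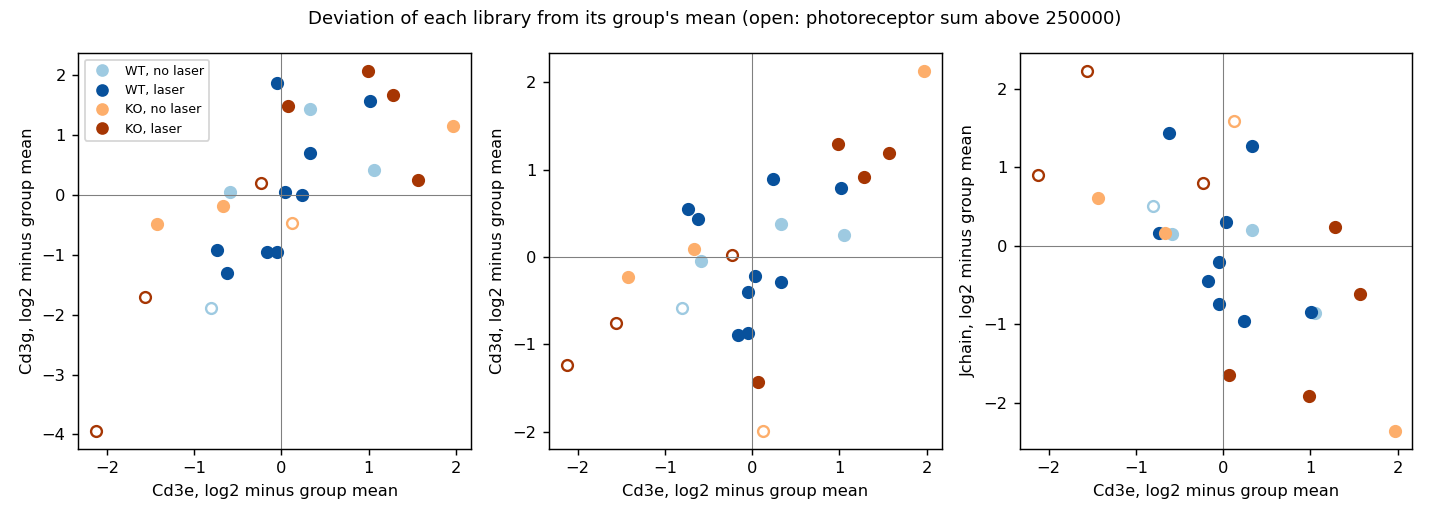
Deviation of each library from its group mean, in log2 of normalized count + 1, for Cd3g, Cd3d and Jchain (vertical axes) against Cd3e (horizontal axes). Points follow Cd3e upward for Cd3g (r = 0.75) and Cd3d (r = 0.62) and downward for Jchain, with open circles for photoreceptor-rich libraries.

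Of 19947 other genes with a mean of at least 10, those most like the CD3 mean by the same deviations were B2m, the light chain of MHC class I (r = 0.881), Phf11b (0.867), Epsti1 (0.865), Rhbdf1 (0.863) and Pik3c2b (0.859). Trbc2 ranked number 35 (r = 0.816), Ctsw 50 and Trac 125. The 19 T cell receptor and signalling genes ranged from r = -0.488 for Sh2d1a to that of Trbc2, with a median of 0.352, and included Lck, the kinase of the CD4 and CD8 co-receptors, at 0.315, Lat at 0.019 and Zap70 at -0.448. The 5 melanocyte genes had a median r of 0.629, from 0.449 for Tyr to 0.755 for Dct, and the 6 endothelial genes one of 0.684, from -0.151 for Kdr to 0.741 for Plvap. All 5 fibroblast genes were between 0.602 and 0.723. Median r was 0.652 for macrophage and monocyte genes, 0.61 for mast cell, 0.586 for pan-leukocyte and 0.56 for dendritic cell genes. It was 0.374 for B cell, 0.333 for NK and cytotoxic, 0.184 for neutrophil and 0.137 for plasma cell genes. The 6 photoreceptor genes lay between -0.569 for Gnat1 and -0.518 for Pde6a. Sh2d1a, named above, had from 364 to 785 normalized counts in the 5 photoreceptor-rich libraries and at most 193 in the others. The part of retinal RNA in its r was not tested. These correlations share libraries and normalization and describe how choroidal and retinal RNA varied together with the CD3 chains.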

How the data were processed

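Choroidal RNA of 24 mouse libraries (SMART-Seq) was measured by sequencing. Per the labels and the methods, the authors checked reads with FastQC 0.11.5, estimated reads with Salmon 1.10.3 on GRCm39, and normalized them with DESeq2 1.44.0. The deposited signal values are normalized counts, not whole reads. Genes with a mean of at least 10 in the libraries fitted were tested with limma 3.58.1 (R 4.3.3) on log2(value + 1), with Benjamini-Hochberg adjustment over all genes tested. Laser and its interaction with genotype were fitted in 24 libraries, genotype in the 8 without and the 16 with laser. Single members were also tested by two-sided exact permutation. Positions and lengths came from GENCODE, matching 99.1% of identifiers, and upstream sequences from GRCm39. Genes named are the 9 members, genes of each lymphocyte list past the threshold (up to 5, otherwise the 3 most abundant), up to 2 of each other list with its most abundant gene, the 5 most like the CD3 chains, and Ceacam1. Members and lists were chosen with earlier results of these data known. One listed marker is not reported here and was left out of its list. Sex is not in the labels, and no library was assigned one. Other lists were dendritic, neutrophil, mast, erythroid, endothelial, RPE, melanocyte, photoreceptor, muscle, lens, surface epithelium and fibroblast. Alternatives were other pseudocounts and filters, upper-quartile scaling, array weights, the summed expression of Y-linked genes as a covariate, fits of only the groups compared, and each library left out in turn. Tables were made in Python 3.11.15 (numpy 2.4.6, pandas 2.3.3, scipy 1.17.1) and plots with matplotlib 3.10.9, and the tests were tried on simulated data.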

Additional observations from a re-analysis of the deposited data

Results flagged for a closer look

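In 5 of the 36 combinations of member and group, 1 library stood apart from its group by Dixon's criterion on normalized counts at the 95% level. For normal values chance meets it in about 1 of 20 groups, a rate that need not hold for low, skewed counts, and on the log2 scale of the other tests 0 of the 5 met it. Library 14 of KO with laser had 499 normalized counts of Jchain, the next highest library of its group having 200. It had the highest photoreceptor sum of the series. In KO without laser, library 28 had 28.5 of Cd3g beside a next value of 10.7, and this library also had the highest Cd3e, Cd3d and Nkg7 of its group. Its summed surface epithelium markers came to 391658 normalized counts, beside 9907, 599 and 3091 in the others of its group, and its Ceacam1 (1171) was the highest of the KO libraries. The part of surface epithelium in its values was not tested. In WT without laser, library 26 had 126 of Cd4 and 35.0 of Cd79a beside next values of 53.3 and 9.85. In WT with laser, library 17 had 36.6 of Cd3e beside 22.4. No difference between the genotypes in a laser effect passed its test for any member.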

How the results depend on the processing

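The count of members past the threshold stayed at 0 in all 5 comparisons under the alternatives run, except with array weights, where 1 was called after laser in WT (Cd79a) and 1 in KO (Cd3e). Over the 4 wider lymphocyte lists, array weights called 13 genes in WT and 10 in KO, beside 6505 and 3551 of all 19950 genes. Fits of only the groups compared called 11 and 0, beside 2274 of 19529 and 38 of 20299 genes. Leaving out the 5 photoreceptor-rich libraries called 9 in KO, beside 2923 of 19596 genes. The main fit called 1053 genes in WT and 742 in KO, so calls over all genes moved as well. Leaving out 1 library at a time gave 3 (without library 21) to 8 (without library 26) in WT and 2 to 4 in KO. Over all genes, 479 of 19930 were called in WT without library 21 and 897 of 19958 without library 26. In KO all genes called ran from 148 (without library 25) to 2488 (without library 23). The cause of these changes was not tested.

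The following differences of genes tested across all genes changed sign. With array weights the laser difference in WT was -0.50 for Cd3e and 1.22 for Ms4a1, that of Cd22 in KO was 1.17, the genotype difference without laser was -0.18 for Cd3g, 0.29 for Cd4, -0.30 for Nkg7 and 1.14 for Ms4a1, and that with laser was 0.37 for Cd4. Without the 5 libraries the laser difference in WT was -0.10 for Cd3e and 0.0203 for Ms4a1, and that of Cd22 in KO was 1.12, while the genotype difference was -0.42 for Cd3g, 0.00089 for Cd4 and -0.32 for Nkg7 without laser and 0.42 for Cd4 with laser. With the Y-linked covariate the laser difference in WT was 0.00238 for Cd3g and 0.0286 for Nkg7, and the genotype difference was -0.0301 for Cd3g without laser and 0.15 for Cd4 with laser. A pseudocount of 10 gave genotype differences without laser of -0.0532 for Cd3g and -0.0279 for Nkg7.

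With 1 library left out at a time, the laser difference in WT ranged from -0.10 to 0.52 for Cd3e, -0.76 to 0.34 for Cd3g, -0.90 to 0.10 for Nkg7 and -0.98 to 0.23 for Ms4a1. In KO it ranged from -0.14 to 0.86 for Cd3g, -0.0741 to 0.73 for Ms4a1 and -0.37 to 0.22 for Cd22. Without laser the genotype difference ranged from -0.58 to 0.52 for Cd3g, -0.28 to 0.25 for Cd4, -0.64 to 0.37 for Nkg7, -0.96 to 0.0371 for Ms4a1 and -1.24 to 0.0709 for Jchain, and with laser from -0.14 to 0.48 for Cd3e, -0.27 to 0.0756 for Cd4, -0.0573 to 0.75 for Ms4a1 and -0.19 to 0.37 for Cd79a. Over the comparisons of groups and the interaction of Jchain, members kept direction and call, or without a test moved by less than 1 SD, in 692 alternative values, changed sign in 51 and passed the threshold in 2. Not counted as changes of sign there were Cd3d between genotypes without laser (-0.86 to 0.51), Cd8a after laser in WT (-1.45 to 0.14) and between genotypes with laser (-0.08 to 0.86), which were not tested across genes with all libraries and crossed 0 over the alternatives. Nor were the interactions of Cd3g (-0.14 to 2.17), Cd4 (-0.34 to 0.42), Ms4a1 (-0.48 to 1.14) and Cd79a (-0.83 to 0.49). No paired analysis was possible because the libraries carry no number shared between groups. The low levels of these genes and the 4 libraries a group without laser limit what could be detected.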
